A study of Homo sapiens with 61 samples.

Results

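The vincristine response of human neurons depleted of the transcription factor ATF2 was read from 9 of the 61 RNA-seq libraries of the series, all from the 29 libraries of its second experiment. These are every library that the labels assign to the ATF2 guide RNA (ATF2 gRNA), 5 untreated (replicates 1 to 5) and 4 treated with vincristine (replicates 2 to 5). No value measured in them was used to pick them. The neurons derive from the established induced pluripotent stem cell line WTC11 through expression of NGN2, a transcription factor that turns stem cells into excitatory neurons. All lines of the second experiment carry CRISPR interference, in which a guide RNA brings an inactive Cas9 repressor to a promoter, with a guide for ATF2, for JUN or a control guide. At day 14 the cultures received 5 nM vincristine or the solvent DMSO (labelled untreated) for 16 h. Used for comparison were Control gRNA and JUN gRNA (5 untreated and 5 vincristine libraries each) and, from the first experiment, WT neurons and neurons lacking both DLK and LZK (double KO, 4 untreated and 4 vincristine libraries each). The labels do not say whether replicates are separate cultures or how many clones a line holds, so p-values measure only the spread between these libraries.

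Vincristine binds tubulin, the building block of microtubules, and stops its polymerisation. In neurons such damage activates the kinases DLK and LZK, which act through JNK on the transcription factors JUN and ATF2 and drive an injury and death programme. Tubulin is also controlled by its own pool: when free tubulin is plentiful, the adaptor TTC5 recognises the first residues of a nascent tubulin chain on the ribosome and the mRNA being translated is degraded.

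The coding starts of tubulin mRNAs are shown because the deepest falls were among tubulin genes and because the mRNA decay described above is read from the nascent tubulin chain. Of those shown, TUBB3 and TUBG1 fell by less and TUBB6 was not called. After ATG, TUBG1 reads CCG, where the alpha and beta tubulins shown read CGT, CGG or AGG. Capitals mark the first 12 coding bases (4 codons), from GENCODE transcripts on GRCh38, 5′ to 3′ on the coding strand.
TUBA1A: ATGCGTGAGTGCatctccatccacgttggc
TUBA4A: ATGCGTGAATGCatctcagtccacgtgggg
TUBB: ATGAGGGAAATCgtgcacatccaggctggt
TUBB2B: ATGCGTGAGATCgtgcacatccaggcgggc
TUBB4A: ATGCGGGAGATCgtgcacctgcaggccggc
TUBB3: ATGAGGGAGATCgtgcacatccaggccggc
TUBB6: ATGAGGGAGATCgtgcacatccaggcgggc
TUBG1: ATGCCGAGGGAAatcatcaccctacagttg
The start codons lie at chr12:49188417-49188419 (minus strand) for TUBA1A, chr2:219253856-219253858 (minus) for TUBA4A and chr6:30720507-30720509 (plus) for TUBB. TUBB2B starts at chr6:3227541-3227543 (minus), TUBB4A at chr19:6502210-6502212 (minus) and TUBB3 at chr16:89923402-89923404 (plus). TUBB6 starts at chr18:12308293-12308295 (plus) and TUBG1 at chr17:42609738-42609740 (plus). TUBA1B shares its 30 bases with TUBA1A, and the capitals of TUBB3 and TUBB6 are identical.

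Total counts per library were 43.0 to 65.5 M in untreated and 41.2 to 44.1 M in vincristine libraries of ATF2 gRNA. ATF2 (ENSG00000115966.16, GRCh38 chromosome 2, 175072250 to 175168382) stood at 0.526 ± 0.294 CPM (counts scaled to library size; SD, n = 5) untreated and 0.573 ± 0.316 (n = 4) after vincristine. These levels were 0.409% and 0.403% of those in Control gRNA, which had 129 ± 18.6 and 142 ± 6.14 CPM. Vincristine replicate 2 and untreated replicate 1 stood apart from their groups, with the widest deviations from the group mean (root mean square 0.234 and 0.218 in log2), and vincristine replicate 2 had the fewest detected genes of the 9 libraries (19102). The chi-square per degree of freedom between replicates was 15.9 to 22.7 for pairs with untreated replicate 1 and 6.09 to 11 for the other untreated pairs. Of the markers, the neuronal genes summed to 6721 to 7067 CPM untreated and 6193 to 6431 CPM after vincristine. Called lower (edgeR adjusted p under 0.05, which 4.22% of all tested genes met) were 3 of those 8 genes, STMN2, TUBB3 and NEFL. The 5 astrocyte genes summed to 6.56 to 8.42 and 6.16 to 8.24 CPM, the 4 microglia genes to at most 0.65 CPM with AIF1 and P2RY12 at 0 in every library, and the 4 fibroblast genes to at most 2.36 CPM. The line also differed from Control gRNA before treatment, with inhibitory neuron markers at 22.2 to 26.2 against 0.489 to 1.5 CPM, pluripotent cell markers at 33.8 to 40.2 against 9.58 to 13.5 CPM and neural progenitor markers at 737 to 814 against 1309 to 1399 CPM. After vincristine these summed to 26.6 to 30.9, 30.7 to 36.6 and 696 to 804 CPM in ATF2 gRNA. Of the 5 progenitor genes 1 was called, SOX2, which rose by 0.32, while 4 were not called and the median was -0.06. SOX2 missed the threshold without untreated replicate 1 or vincristine replicate 3 (edgeR adjusted p = 0.0644 and 0.0723). It overlaps SOX2-OT on the same strand. The astrocyte gene AQP4 was called lower on 59 counts in 5 untreated libraries (0 to 32 each) and 0 in 4 vincristine libraries, at least 13-fold lower against a floor of 3 counts over the group. What these cells contribute to the results below was not tested.

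The first comparison asks how much of the transcriptome still responds when ATF2 is depleted. Of 20759 genes tested, 1267 were called (6.1%, edgeR quasi-likelihood test, Benjamini-Hochberg adjusted p under 0.05), with 390 higher (1.88% of all tested) and 877 lower (4.22%). The same test in the Control gRNA line called 7318 (35.3%), with 3551 higher and 3767 lower. Changes under ATF2 gRNA were small, with a median log2 fold change of 0.28 among the higher and -0.25 among the lower genes, against -0.02 over all tested genes. The libraries of both treatments did not overlap for 306 of the 390 higher and 620 of the 877 lower genes, where 7.36% of all tested genes had such a gap (2.76% higher and 4.6% lower). In bulk RNA, fewer cells of a type and less RNA per cell cannot be told apart.

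Falls made up 69.2% of the called genes, against 51.5% in Control gRNA and 52.3% in JUN gRNA, and this share moved with the scaling. It was 60.7% with DESeq2 (933 of 1536 called genes), 59.6% with RLE factors (685 of 1149), 59.1% with limma voom and sample quality weights (592 of 1001), and 57.9% with upper quartile factors (650 of 1123). A filter at a mean of 1 CPM gave 57.9% (735 of 1270) and a fit of only these 9 libraries 56.2% (432 of 768). With total counts alone as the scale the majority turned, to 631 higher and 519 lower genes (45.1% lower). The other lines moved too: with total counts alone 38.8% of calls fell in Control gRNA and 34.6% in JUN gRNA, and with upper quartile factors 51.9% and 45.7%. The excess of falls among larger changes did not turn. Among called genes with an average log2 CPM of at least 1, 80 fell and 29 rose 1.5-fold or more, and 66 fell and 42 rose with total counts alone. That average was taken over all 29 libraries of the second experiment, so a gene can pass it through the other lines. At 2-fold or more 21 fell and 0 rose, and 20 fell and 0 rose with total counts alone. A single rise reached 2-fold without untreated replicate 2 or 4. Without the cut on expression, 79 genes fell and 12 rose 2-fold or more, of which 30 and 6 had at most 3 counts in every library of 1 group. In Control gRNA the order was the other way, with 172 genes 2-fold lower and 873 higher.

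**Figure D1:**
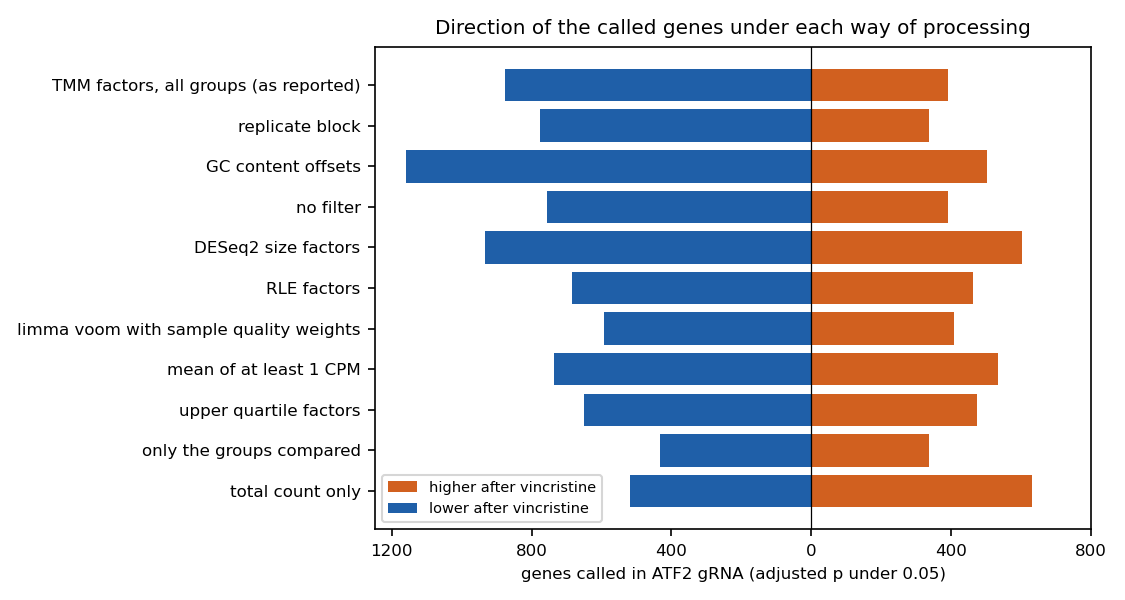
Number of genes called in ATF2 gRNA (horizontal axis), lower (left bars) and higher (right bars) after vincristine, under each way of scaling, filtering or fitting. The left bar is the longer one in every setting shown except total count only, where 631 genes were higher and 519 lower.

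The deepest falls were in tubulin mRNAs. Over all tested genes 4.22% were called lower. Of the 15 alpha and beta tubulin genes listed, 12 were tested, 9 were called lower and 0 higher, with a median log2 fold change of -1.46 (-1.35 in Control gRNA and -1.37 in JUN gRNA). TUBA1A (ENSG00000167552.13, chromosome 12, 49184796 to 49189324), the main neuronal alpha tubulin, read 3103, 2822, 2898, 2969 and 2931 CPM untreated and 677, 583, 612 and 638 CPM after vincristine. All treated libraries were far below all untreated ones, at 21.3% of the untreated level (log2 fold change -2.23 ± 0.05, SE; edgeR adjusted p = 3.72e-23). TUBB (ENSG00000196230.12, chromosome 6, 30720201 to 30725426), a beta tubulin, read 1420, 1277, 1328, 1366 and 1339 CPM untreated and 331, 311, 323 and 334 CPM after vincristine. Its groups were likewise apart, and the level after treatment was 24.1% of the untreated one (-2.05 ± 0.05, edgeR adjusted p = 1.8e-29). TUBA1B (-2.06), TUBB4A (-1.89), TUBB2B (-1.71), TUBB2A (-1.56), TUBB4B (-1.37) and TUBA4A (-1.28) fell too, each without overlap. Summed over the list, the level went from 5826 ± 219 CPM (n = 5) to 1426 ± 78.1 CPM (n = 4).

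Compared with Control gRNA, the fall was deeper under ATF2 gRNA for TUBA1A (difference -0.45, edgeR adjusted p = 7.05e-06), TUBB2B (-0.45, 7.57e-06), TUBA4A (-0.44, 4.72e-05) and TUBB (-0.33, 4.23e-05). For TUBB4B the difference was 0.22 ± 0.09 and did not pass (adjusted p = 0.056). Untreated levels already differed between the lines: TUBA1A was 2945 ± 104 CPM in ATF2 gRNA and 6967 ± 170 CPM in Control gRNA, while TUBA4A was 105 ± 3.66 and 57.2 ± 4.54 CPM. After vincristine the list summed to 3804 ± 60.6 CPM in Control gRNA (n = 5), from 12355 ± 291.

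TUBG1, the gamma tubulin that nucleates microtubules, fell as well, from 55.0 to 62.6 CPM untreated to 25.9 to 34.1 CPM (-0.94 ± 0.07). Here the fall was shallower than in Control gRNA (difference 0.38 ± 0.10, edgeR adjusted p = 0.00365). It was the single member called among the 18 genes of gamma tubulin complexes, tubulin folding and autoregulation. The autoregulation adaptor TTC5 stood at 44.6 ± 1.51 and 42.3 ± 2.23 CPM (adjusted p = 0.464).

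TUBB6 shares its first 12 coding bases with TUBB3, yet its libraries overlapped. TUBB6 read 13.7, 10.0, 8.05, 11.0 and 10.8 CPM untreated and 11.0, 9.80, 8.14 and 8.86 CPM after vincristine (-0.18 ± 0.13, edgeR adjusted p = 0.535). In Control gRNA it rose by 0.94, and the difference passed (-1.12 ± 0.19, adjusted p = 7.33e-06). TUBB3, the usual neuronal beta tubulin marker, fell by 0.60 from 11.4 ± 1.74 CPM to 7.54 ± 1.83 CPM. Its value is uncertain, since it overlaps the gene AC092143.1 on the same strand. TUBB overlaps the antisense gene AL662797.1, itself called lower in double KO. Reads shared by near-identical copies such as TUBA1A and TUBA1B may be split or dropped, by a setting not given in the sources used here.

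**Figure D2:**
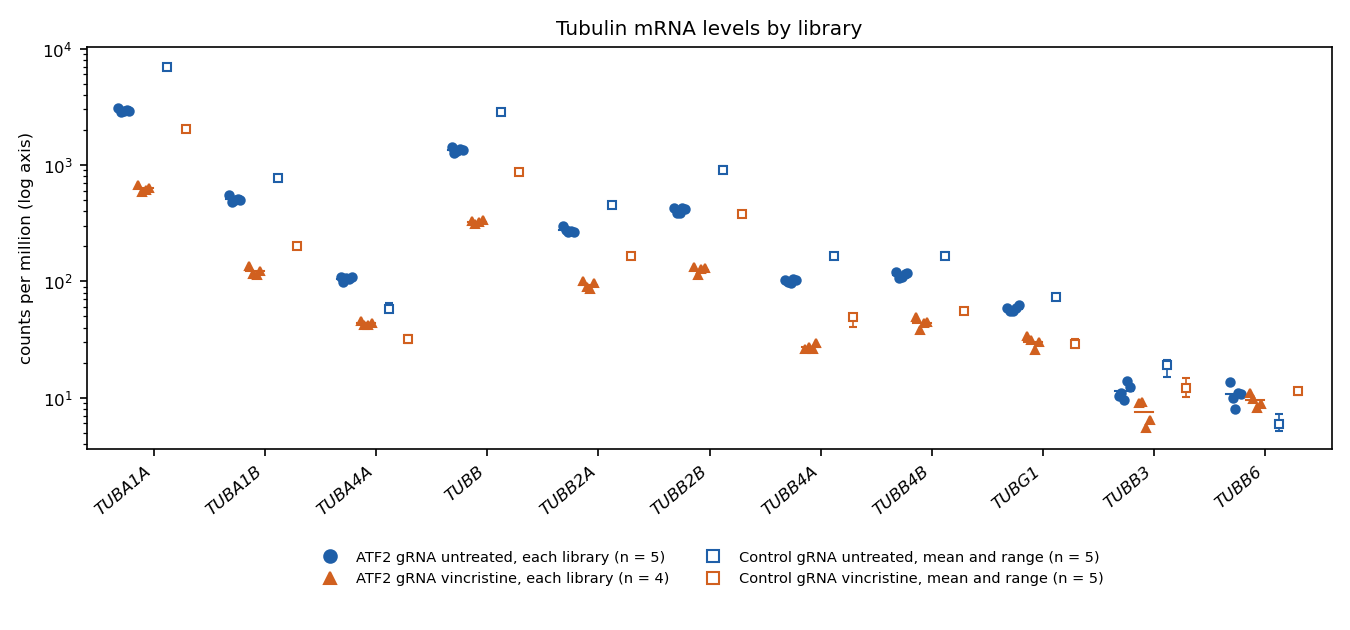
Levels (CPM, log axis) of tubulin mRNAs in each ATF2 gRNA library (filled points, lines at the means) and in Control gRNA (open squares with the range). The vincristine points lie below the untreated points in every gene except TUBB6, where they overlap.

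Tubulin falls were also called in double KO neurons, where vincristine changed 12 genes of 18235 (0.0658%), 1 higher (0.00548%) and 11 lower (0.0603%). Of the 877 genes lower in ATF2 gRNA, 852 were measured in the first experiment and 9 of them were called lower in double KO. They are TUBA1A, TUBA1B, TUBB, TUBB2A, TUBB2B, TUBB3, TUBB4A, TUBB4B and TUBG1, with double KO values of -1.66 to -1.06. Of the 384 measured genes that were higher in ATF2 gRNA, 0 were called higher there by edgeR, DESeq2 or limma voom, and 3 had an unadjusted p under 0.05 by edgeR. Their median in double KO was -0.04, and that of the 852 lower genes 0.01. STMN4, a stathmin that binds free tubulin, was higher in double KO (0.41) and lower in ATF2 gRNA (-0.37), at 14.2 ± 1.2 CPM untreated against 390 ± 19.5 CPM in Control gRNA, where it rose by 1.22. The count of 12 depends on the fit. It was 67 with limma voom (18 higher, 49 lower) and 1028 when only the 8 double KO libraries were fitted, and there the direction turned, with 591 higher and 437 lower. In that fit 49 of 840 genes lower in ATF2 gRNA were called lower in double KO and 113 higher, and of 368 genes higher in ATF2 gRNA 4 were called higher and 17 lower.

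Genes for microtubule partners fell by less. The share called lower was 4.22% of all tested genes, and 296 of the 1825 above a log2 CPM of 7. Of 25 microtubule-associated proteins and stathmins 10 were called lower and 0 higher (median -0.11, Control gRNA -0.14). MAP7, which recruits kinesin to microtubules, read 5.44, 6.06, 5.60, 6.69 and 7.14 CPM untreated and 2.43, 3.21, 2.19 and 2.86 CPM after vincristine. The groups did not overlap, and the fall (-1.21 ± 0.12) was deeper than in Control gRNA (difference -0.84 ± 0.16, edgeR adjusted p = 5.75e-05). Its relative MAP7D2 fell by 0.55 and also differed (-0.62), but missed the threshold without vincristine replicate 3 (-0.43) or 4 (-0.48). MAPT, the gene of tau, fell by 0.15, MAP6 by 0.24 and STMN2, a growth-associated stathmin, by 0.24. Among 23 kinesin and dynein genes 6 fell and 0 rose, with KIF3A at -0.28 and DYNC1I2 at -0.20. Over the alternatives the falls numbered 3 to 8 in this list and 6 to 11 among the microtubule-associated proteins and stathmins.

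Beyond tubulin, few genes above the cut on average expression fell 2-fold. Some of them lay near 1 CPM in ATF2 gRNA. GRIN2A (chromosome 16, 9753404 to 10182754), an NMDA receptor subunit, read 4.90, 4.63, 4.32, 5.04 and 2.96 CPM untreated and 1.83, 1.58, 1.13 and 2.15 CPM after vincristine. All treated libraries were below all untreated ones, and the log2 fold change was -1.39 ± 0.15. In Control gRNA GRIN2A rose by 0.39, and the difference was -1.78 ± 0.19 (edgeR adjusted p = 4.68e-10). SCUBE1, a secreted and membrane-bound protein, went from 12.7 ± 2.06 to 5.23 ± 0.637 CPM (-1.28 ± 0.10) and fell by less in Control gRNA (-0.35). FABP7, a fatty acid binding protein of neural progenitors, fell from 2.25 ± 0.523 to 0.857 ± 0.319 CPM and differed from Control gRNA too (-1.06 ± 0.32). PREX2 (-1.34) and IKZF1 (-1.65), a blood cell transcription factor at 1.46 CPM untreated, fell with no called difference (0.08 and -0.47). IKZF1 did not pass without vincristine replicate 4 (-1.35, edgeR adjusted p = 0.0591) or with limma voom (-1.85, adjusted p = 0.0611). Nor did it pass in an edgeR fit of only these 9 libraries (-1.65, adjusted p = 0.2). It read 0 to 0.975 CPM after vincristine in ATF2 gRNA, against a mean of 4.57 CPM in untreated Control gRNA.

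Sterol genes fell together but less than in Control gRNA. Beside the count that follows, 4.22% of all tested genes were called lower, and 296 of the 1825 above a log2 CPM of 7. Of 22 genes of cholesterol synthesis and uptake 13 were called lower and 0 higher, with a median of -0.25, against 21 lower and -1.02 in Control gRNA. The difference was called for 20 of them, each toward a less negative value. INSIG1 (chromosome 7, 155297776 to 155310235), the sterol sensor that retains SREBP in the endoplasmic reticulum, read 125, 118, 117, 123 and 119 CPM untreated and 81.2, 75.6, 74.8 and 87.4 CPM after vincristine. The groups were apart, at 66.3% of the untreated level in ATF2 gRNA and 32.5% in Control gRNA (difference 1.03 ± 0.11, edgeR adjusted p = 3.96e-08). NSDHL fell by 0.55 and HMGCS1, the first committed step, by 0.37. SREBF2, the regulator of the pathway, did not pass (0.01 ± 0.04). Without vincristine replicate 4 the list held 8 called genes, with a median of -0.24.

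Messages of the mitochondrial genome were lower in every treated library. Of the 13 mitochondrial mRNAs 10 were called lower and 0 higher (median -0.24), and all 13 had no overlap between groups. Over all tested genes 4.22% were called lower and 4.6% were lower without overlap. Above a log2 CPM of 7, 296 of 1825 genes were called lower. Control gRNA had 2 called lower and a median of -0.06, and the difference between the lines passed for 3, MT-ND4 (-0.34), MT-ND4L (-0.27) and MT-ATP6 (-0.35, lost under 19 of 29 alternatives). MT-ATP6, an ATP synthase subunit, read 2134, 2193, 2070, 2507 and 2187 CPM untreated and 1685, 1736, 1623 and 1806 CPM after vincristine. Every treated library was below the lowest untreated one (-0.37 ± 0.09, edgeR adjusted p = 0.0126, and 0.0614 without vincristine replicate 4). The mitochondrial share of counts was 5.07% to 5.73% untreated and 4.71% to 5.01% after vincristine. In Control gRNA it was 5.98% to 6.31% and 6.41% to 7.25%. The count of called genes varied, from 2 with limma voom to 13 in a fit of these 9 libraries. It was 3 without vincristine replicate 4, 4 without vincristine replicate 2, and 5 without vincristine replicate 3 or untreated replicate 4, while the median stayed between -0.25 and -0.20.

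Other energy and chaperone genes showed small falls. Beside these counts, 4.22% of all tested genes were called lower, and 296 of the 1825 above a log2 CPM of 7. Of 19 glycolysis genes 6 fell and 0 rose (median -0.10, Control gRNA 16 and -0.31), among them ALDOC (-0.42), PGAM1 (-0.18), TPI1 (-0.16) and LDHB (-0.16). Nuclear respiratory chain genes had 5 of 23 lower, with ATP5PO at -0.22 and COX6C at -0.19. Of 15 heat shock genes 4 fell, with HSPA8, the constitutive cytosolic chaperone, at 2159, 2122, 2089, 2034 and 2119 CPM untreated and 1801, 1819, 1775 and 1788 CPM after vincristine. These groups were apart although the change was small (-0.23 ± 0.03). In Control gRNA HSPA8 fell further (difference 0.17 ± 0.04). ALDOC, PGAM1, ATP5PO and COX6C each lost the call without vincristine replicate 4 (adjusted p = 0.0751, 0.208, 0.0849 and 0.0522) and without at least 1 other library. Over the alternatives the number of falls ranged from 2 to 9 for glycolysis, 1 to 6 for nuclear respiratory genes and 1 to 5 for heat shock genes.

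Among the rises, amino acid stress genes were the group with most calls. Over all tested genes 1.88% were called higher, and 69 of the 1825 above a log2 CPM of 7. The integrated stress response lowers translation and raises ATF4 protein, which switches on genes for amino acid supply, redox balance and cell death. Of 22 listed genes, chosen as members of this response or targets of ATF4, 20 were tested. Called higher were 17 and lower 0, with a median of 0.47. Control gRNA had 18 higher and a median of 1.45, JUN gRNA 14 and 0.51. The difference from Control gRNA passed for 16 genes, 14 toward a smaller rise. TRIB3 (chromosome 20, 362835 to 397559), a pseudokinase induced by ATF4, read 68.9, 63.3, 67.9, 67.2 and 66.2 CPM untreated and 108, 107, 119 and 115 CPM after vincristine. All treated libraries were higher, by 1.68-fold (0.75 ± 0.06, edgeR adjusted p = 7.9e-12). In Control gRNA TRIB3 went from 19.2 ± 0.521 to 105 ± 6.77 CPM, against 66.7 ± 2.15 and 112 ± 5.60 CPM in ATF2 gRNA (difference in log2 fold change -1.70 ± 0.09).

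DDIT3, the stress transcription factor CHOP, read 130, 113, 106, 107 and 108 CPM untreated and 162, 172, 163 and 163 CPM after vincristine in ATF2 gRNA. It rose by 0.55 with no overlap, and by 2.89 in Control gRNA from 19.5 ± 0.425 CPM. SESN2, a stress inhibitor of mTORC1, rose by 0.65 and STC2, a secreted stress glycoprotein, by 0.74. JDP2, a bZIP repressor of AP-1 sites, rose by 0.78 and CEBPB, a bZIP partner of ATF4, by 0.74. The rise of JDP2 did not differ from Control gRNA by the test (-0.28 ± 0.13, edgeR adjusted p = 0.125), while that of CEBPB did (-1.77). CEBPB missed the threshold without vincristine replicate 2 (0.70, adjusted p = 0.0623) or replicate 4 (0.72, 0.0521). ATF4 mRNA itself did not pass (0.11, adjusted p = 0.0717), and it was 452 ± 15.8 and 488 ± 5.06 CPM.

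The list of serine, asparagine and one-carbon synthesis had 8 of 11 members called higher, with a median of 0.40, against 8 and 0.42 in Control gRNA and 4 and 0.08 in JUN gRNA. PSAT1, which makes phosphoserine, read 66.9, 69.9, 65.5, 68.2 and 69.0 CPM untreated and 85.7, 94.8, 98.1 and 89.7 CPM after vincristine. The groups were apart (0.44 ± 0.06), and the difference from Control gRNA was 0.02 ± 0.08 (edgeR adjusted p = 0.933). PHGDH (0.43), MTHFD2 (0.41) and ALDH1L2 (0.44) rose too, ALDH1L2 by less than in Control gRNA (-0.36). SHMT2, which makes glycine in mitochondria, rose by 0.41 (446 ± 31.2 to 591 ± 14.3 CPM), also by less than in Control gRNA (0.76, from 207 ± 9.29 to 349 ± 19.3 CPM, difference -0.35). ALDH18A1 (-0.06) and SHMT1 (-0.22) did not pass. PYCR1, a proline synthesis enzyme, rose by 0.36 and stood at 0.01 in Control gRNA, a difference that passed (0.35, adjusted p = 0.00298). Of 12 amino acid transporters 7 were higher, including SLC7A5 (0.54), a leucine carrier, and SLC7A11 (0.70), the cystine importer. Of 18 aminoacyl-tRNA synthetases 9 were higher and 0 lower, WARS by 0.28 and GARS by 0.27. Over these 4 lists, 39 of 59 tested genes were higher and 0 lower, where 1.88% of all tested genes were called higher. Of those 39 the difference from Control gRNA passed toward a smaller rise for 21 and did not pass for 16.

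**Figure D3:**
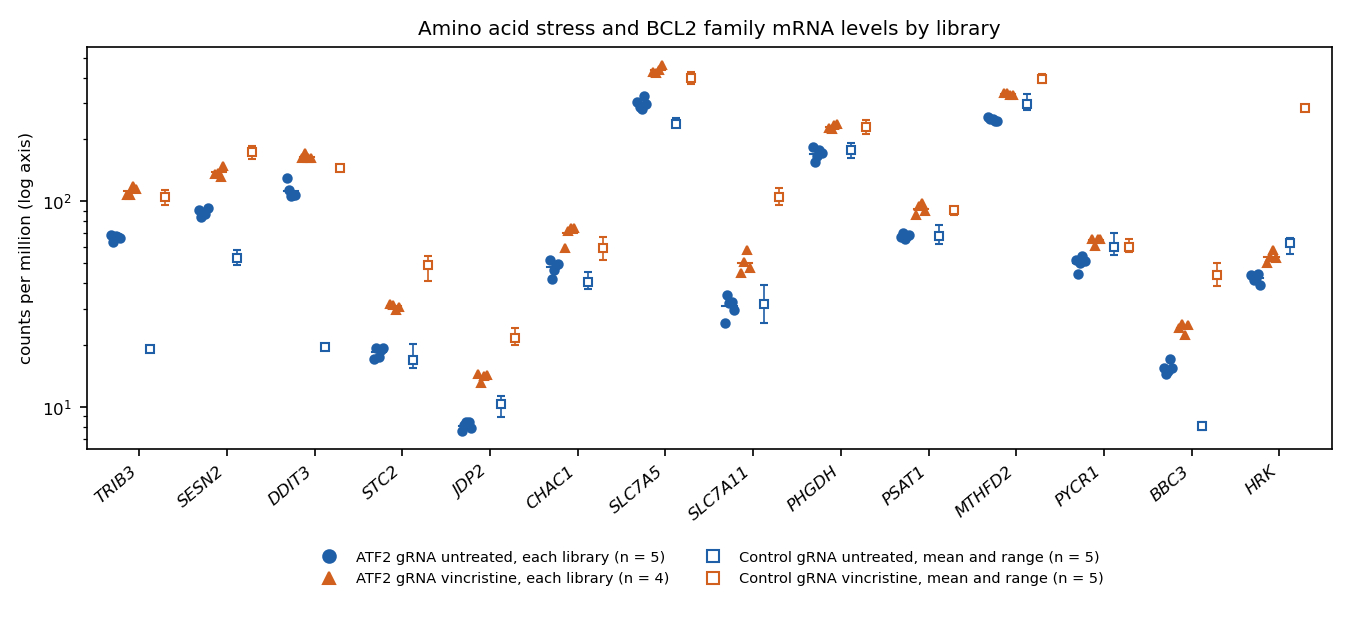
Levels (CPM, log axis) of amino acid stress genes and of the BCL2 family members BBC3 and HRK in each ATF2 gRNA library (filled points, lines at the means) and in Control gRNA (open squares with the range). Vincristine points lie above untreated points in all 14 genes in ATF2 gRNA. The Control gRNA steps are widest for TRIB3, DDIT3, BBC3 and HRK. They are also wider than in ATF2 gRNA for SESN2, STC2, SLC7A11 and SLC7A5, among others, and narrower for PYCR1.

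Promoters of these genes were searched because ATF4 binds, with a C/EBP partner, a composite element. RefSeq promoters on GRCh38.p14 (250 bases before to 50 after each start, 300 in all) were matched by symbol and found for 270 of the 390 higher, 651 of the 877 lower and 12414 of all tested genes. The letters TGATGNAA, on either strand, occurred in 15 of 270 promoters of higher genes (5.56%), 8 of 651 of lower genes (1.23%) and 239 of 12414 of tested genes (1.93%). In the 4 amino acid lists the share was 6 of 25 higher genes (24%) and 7 of 33 tested genes (21.2%). Those 6 are among the 15 above. The stress response list was drawn up to hold ATF4 targets, so this share is not independent of the choice of genes. In Control gRNA the promoters of higher and lower genes held TGATGNAA in 2.64% and 1.14%. TGACGTCA, the CRE letters that ATF2 can bind, was present in 4.81% of higher, 4.45% of lower and 3.06% of tested promoters, and TGANTCA, the AP-1 letters, in 5.93%, 5.22% and 4.76%. For higher and lower genes of Control gRNA the shares were 4.55% and 2.34% for TGACGTCA and 6.15% and 3.55% for TGANTCA. Among the genes that rose 1.5-fold or more, 0 of 20 promoters held TGATGNAA and 5 of 20 (25%) held TGANTCA. None of these 3 sets of letters contains another, although matches can share bases at their ends. A match describes letters and not a bound site. Promoter stretches of 4 of these genes follow, with the match in capitals and 20 bases on each side, on the gene's strand.
ASNS: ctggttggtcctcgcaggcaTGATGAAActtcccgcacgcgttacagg
MTHFD1L: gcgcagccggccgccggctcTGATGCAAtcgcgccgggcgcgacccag
CHAC1: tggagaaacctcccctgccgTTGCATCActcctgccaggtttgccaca
ATF3: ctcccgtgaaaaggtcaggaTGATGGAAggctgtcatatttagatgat
They lie at chr7:97872449-97872496 (minus strand), chr6:150866337-150866384 (plus), chr15:40953242-40953289 (plus, match on the other strand) and chr1:212565196-212565243 (plus). In ATF2 gRNA the asparagine synthetase gene ASNS rose by 0.40, MTHFD1L by 0.24, the glutathione-degrading enzyme gene CHAC1 by 0.55 and ATF3 by 0.48.

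Some AP-1 and death genes rose, where 1.88% of all tested genes were called higher. Of 17 tested AP-1, ATF and CREB factors 4 rose and 0 fell, against 12 higher in Control gRNA. FOS, the partner of JUN in AP-1, read 5.78, 6.57, 6.11, 4.89 and 6.19 CPM untreated and 9.76, 9.78, 10.7 and 12.1 CPM after vincristine. The groups were apart (0.84 ± 0.18), and the smaller rise than in Control gRNA (1.46) did not pass (adjusted p = 0.0789). MAFF rose by 0.89 from 0.505 ± 0.200 CPM. That rise did not pass with limma voom (0.85, adjusted p = 0.26) or in an edgeR fit of only these 9 libraries (0.92, adjusted p = 0.404). ATF3, an injury-induced factor, rose by 0.48 where Control gRNA rose by 3.48 (difference -3.00 ± 0.10, edgeR adjusted p = 1.68e-24). JUN read 21.0 ± 2.00 and 20.5 ± 3.08 CPM (adjusted p = 0.921) and went from 88.5 ± 6.97 to 237 ± 12.9 CPM in Control gRNA. Among 15 BCL2 family genes 4 rose and 0 fell, against 6 and 3 in Control gRNA. BBC3 (PUMA), a BH3-only death factor, read 15.4, 14.4, 15.0, 17.2 and 15.4 CPM untreated and 24.2, 25.4, 22.4 and 25.0 CPM after vincristine. The groups were apart, at 1.57-fold against 5.39-fold in Control gRNA (difference -1.78 ± 0.13). HRK rose by 0.35 and PMAIP1 (NOXA) by 0.48. PMAIP1 did not pass without vincristine replicate 2 (0.35, adjusted p = 0.211), or without untreated replicate 2, 3 or 4 (0.0731 to 0.106).

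Activity genes and guidance genes added a few rises, where 1.88% of all tested genes were called higher, and 69 of the 1825 above a log2 CPM of 7. Of 16 tested activity-induced genes 5 rose, with EGR1 at 0.41, NR4A1 at 0.67 and BDNF, a neurotrophin, at 0.48. EGR1, an immediate early factor, stood at 522 to 564 CPM untreated in ATF2 gRNA and 673 to 751 CPM after vincristine, and went from 13.9 to 128 CPM in Control gRNA (means, 3.20). BDNF stood at 16.0 ± 1.88 CPM untreated in ATF2 gRNA and 1.66 ± 0.175 CPM in Control gRNA, and the difference in response was -0.16 ± 0.18 (adjusted p = 0.603). NR4A1 missed the threshold without any one of untreated replicates 2 to 5 or vincristine replicates 2, 3 and 5 (adjusted p = 0.056 to 0.0958), at changes of 0.61 to 0.68. UNC5B, a netrin receptor, rose by 0.58 (2.79 in Control gRNA) and PLXNA2, a semaphorin receptor, by 0.25. VGF, a secreted neuropeptide precursor, rose by 0.51. VIM, an intermediate filament of immature and injured cells, went from 27.2 ± 1.43 to 36.2 ± 3.03 CPM (0.41) and in Control gRNA from 18.8 ± 1.14 to 131 ± 5.89 CPM. Other large rises were the host RNA MIR4435-2HG (0.86), the phosphatase PPM1M (0.77), the calcium hormone STC1 (0.74), AL162231.2 (0.80) and C19orf71 (0.72). C19orf71 did not pass without vincristine replicate 4 (0.52) or untreated replicate 1 (0.65) or 2 (0.68). MIR4435-2HG, AL162231.2 and C19orf71 overlap other genes, and the strand setting of the counting is not given in the sources used here.

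Some rises were larger than in Control gRNA. TTC32 read 5.97, 6.97, 6.85, 6.77 and 6.91 CPM untreated and 8.97, 10.2, 8.98 and 9.11 CPM after vincristine. These groups were apart (0.48 ± 0.12), Control gRNA stood at 0.02, and the difference was 0.46 ± 0.16 (edgeR adjusted p = 0.042). AC046185.3 (0.48), AC009812.1 (0.47) and AC005696.4 (0.42) also rose with a called difference. AC046185.3 lost the call of its rise without vincristine replicate 2 (0.35) or 4 (0.42), and AC009812.1 without any of 5 libraries. The difference of TTC32 from Control gRNA was lost under 16 alternatives and that of AC046185.3 under 5. PCDH19, a protocadherin, rose by 0.27 and fell by 0.51 in Control gRNA, while its relative PCDH8 fell in both, by 0.76 and 1.78.

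A shared part and a changed part were separated by 3 tests, the effect in each line and their difference. Both comparisons within the second experiment come from 1 fit, but Control gRNA and ATF2 gRNA share no libraries. Control gRNA had higher calls for 17.1% of all tested genes, and for 262 (67.2%) of the 390 higher in ATF2 gRNA. Of the rest 94 were not called there and 34 were lower. Of the 877 lower genes, 604 (68.9%) were called lower in Control gRNA (background 18.1%), 222 were not called and 51 were called higher. Read the other way, the shared genes were 7.38% of the 3551 rises and 16% of the 3767 falls of Control gRNA. For 127 shared rises and 338 shared falls the difference between lines did not pass, with medians of 0.28 and -0.26 in ATF2 gRNA and 0.34 and -0.32 in Control gRNA. This does not show that these effects are equal.

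The difference was called for 4273 of all tested genes (20.6%). A more positive value in ATF2 gRNA was called for 10.2% of all tested genes and a more negative one for 10.4%. Among the 390 rises it was called for 209, 134 toward a smaller and 75 toward a more positive value in ATF2 gRNA. Among the 877 falls it was called for 422, 254 toward a smaller and 168 toward a more negative value. The 134 smaller rises had a median of 0.33 in ATF2 gRNA and 1.18 in Control gRNA. Before treatment 113 of these 134 genes were higher in ATF2 gRNA than in Control gRNA and 21 lower (median log2 ratio 0.53). After vincristine the median ratio was -0.21, with 49 higher and 85 lower. The 254 smaller falls had medians of -0.20 and -0.52. Of these, 220 were lower untreated in ATF2 gRNA and 34 higher (median log2 ratio -0.33, and 0.03 after vincristine). Both sets were chosen by the difference in effect, and what the untreated levels contribute to it was not tested.

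**Figure D4:**
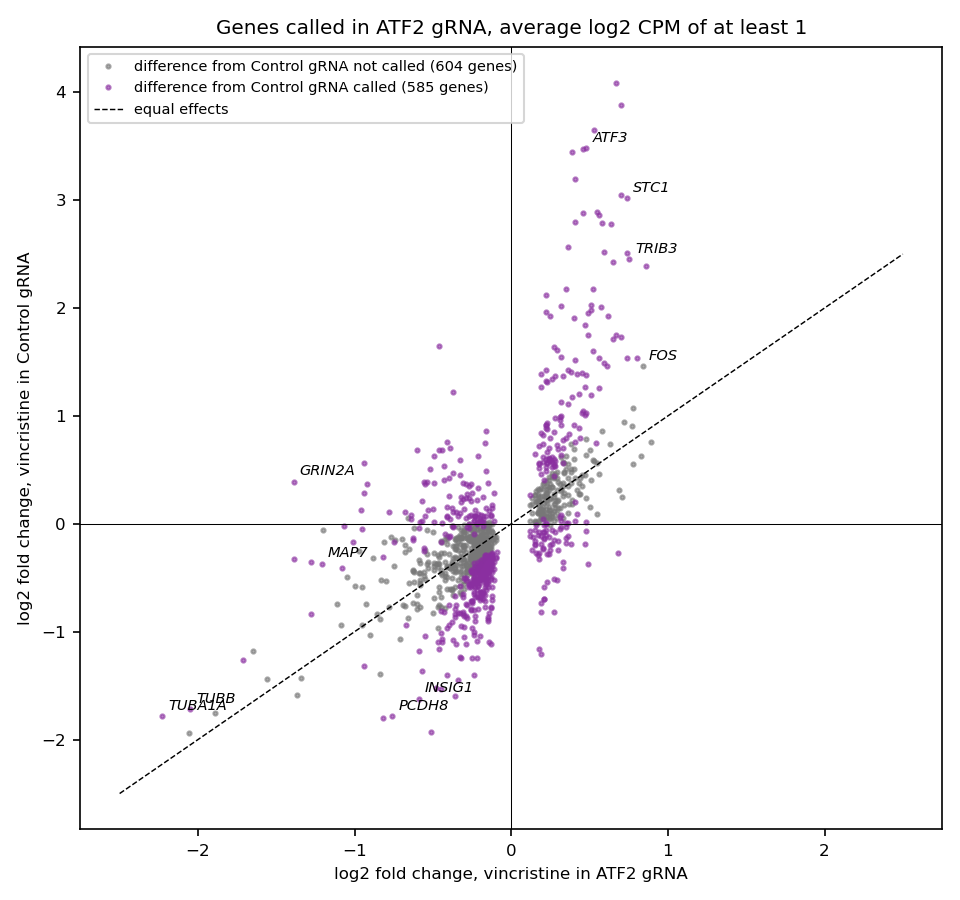
Log2 fold change with vincristine in ATF2 gRNA (horizontal) and Control gRNA (vertical) for the genes called in ATF2 gRNA with an average log2 CPM of at least 1, 604 with no called difference (grey) and 585 with one (purple). Tubulins lie near the dashed line of equal effects, ATF3, STC1 and TRIB3 far above it, and GRIN2A above the horizontal zero line although it fell in ATF2 gRNA.

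JUN gRNA gave an intermediate response, with 3300 called genes (15.9%), 1574 higher and 1726 lower. It shared the direction and call of 259 of the 390 rises (66.4%) and 518 of the 877 falls (59.1%) of ATF2 gRNA, with backgrounds of 7.58% and 8.31%. The test of the difference between ATF2 gRNA and JUN gRNA called 587 genes (2.83%; 0.91% more positive and 1.92% more negative in ATF2 gRNA), 85 of them among the 390 rises and 100 among the 877 falls. Genes that all 3 lines shared with no called difference from either numbered 71 rises and 215 falls.

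Genes chosen in WT neurons, which share no libraries with the second experiment, sized the response without using its own calls. WT had 5498 called genes of 18235 (30.2%). The 612 genes that rose at least 2-fold there, and were tested in both experiments, had a median of 0.18 in ATF2 gRNA, 1.24 in Control gRNA and 0.49 in JUN gRNA, so ATF2 gRNA kept 14.2% of the Control median and JUN gRNA 39.5%. The 278 that fell at least 2-fold had medians of -0.17, -0.76 and -0.35, or 22.6% and 45.9%. Called the same way in ATF2 gRNA were 103 of the 612 and 58 of the 278. Without the alpha and beta tubulins 270 falling genes were left, with a median of -0.17 in ATF2 gRNA and -0.75 in Control gRNA. The experiments were scaled separately.

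Across the 35 gene lists most members did not pass. No call was made among 30 cytosolic ribosomal proteins (median -0.03), 15 clock genes (0.07) or 9 genes of SARM1 and NAD metabolism (-0.05) with edgeR. At an unadjusted p under 0.05 these lists held 2, 3 and 3 genes, with 0 calls by DESeq2 and with 0, 1 and 0 by limma voom. As a yardstick for the counts that follow, edgeR calls made up 1.88% (rises) and 4.22% (falls) of the whole tested set. Calls were more frequent at high expression, with 69 rises and 296 falls among the 1825 genes above a log2 CPM of 7. Whether any of these lists exceeds such shares was not tested. Of 25 synaptic vesicle genes 1 fell, RAB3A (-0.20), and of 29 voltage-gated channels 3 fell, such as SCN1A (-1.05), and KCND3 rose (0.33). The DLK, LZK and JNK pathway had 2 of 16 lower, SPAG9 (-0.16) and MAPK8 (-0.14), and MAP kinase phosphatases 1 of 10 higher, DUSP5 (0.20). SCN1A, KCND3, MAPK8 and DUSP5 each lost the call without any one of at least 5 libraries, and SPAG9 without vincristine replicate 2 or 4 (adjusted p = 0.0633 and 0.0569). ER chaperones and unfolded protein response genes gave 3 rises and 1 fall of 20, with HERPUD1 at 0.33 and EIF2AK3, the kinase PERK, at 0.22. EIF2AK3 did not pass without vincristine replicate 2 or 3 or untreated replicate 3 or 4 (adjusted p = 0.0545 to 0.0835). Growth-associated genes had 4 of 14 lower, TUBB3, SOX4 (-0.17) and the growth cone genes GAP43 (-0.20) and BASP1 (-0.13), and 1 higher, ATF3. Of 12 neurotrophic factors and receptors 2 rose, BDNF and NTRK2 (0.19), and 3 fell, NGFR (-0.39), GFRA1 (-0.27) and RET (-0.18), where NGFR missed the threshold without vincristine replicate 3 or 4 (adjusted p = 0.0516 and 0.0662). NRF2 and antioxidant genes gave 3 falls of 13, TXN (-0.25), PRDX1 (-0.24) and TXNRD1 (-0.19), and 1 rise, SLC7A11. POU4F1, a sensory neuron factor, fell by 0.25 and by 1.24 in Control gRNA.

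**Figure D5:**
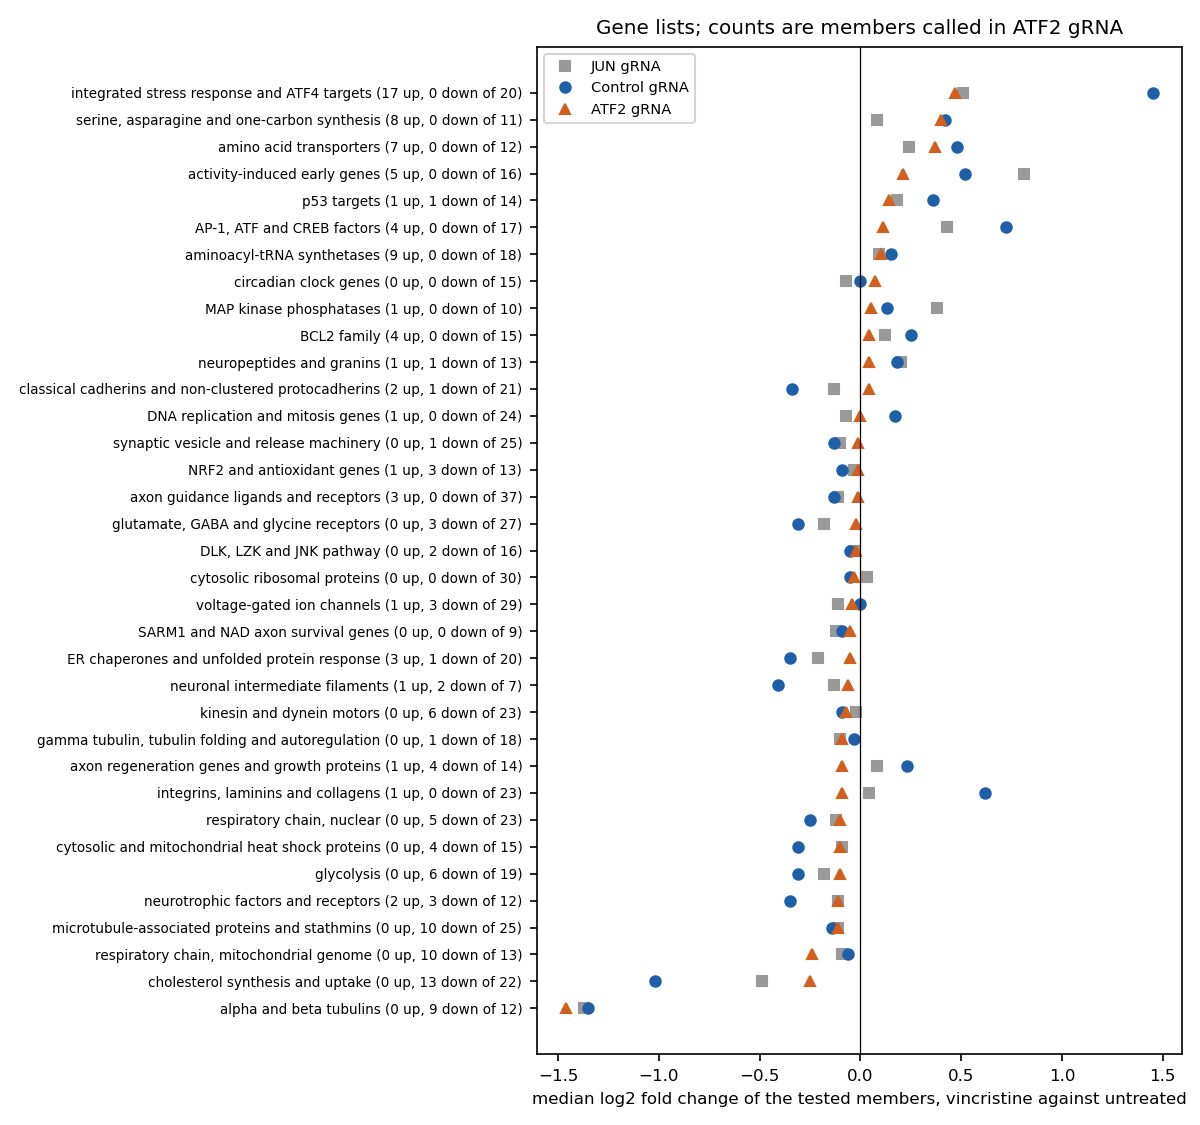
Median log2 fold change of the tested members of each of 35 gene lists in ATF2 gRNA (triangles), Control gRNA (circles) and JUN gRNA (squares), with the number called in ATF2 gRNA beside each name. Tubulins sit at -1.46 in ATF2 gRNA beside -1.35 and -1.37, while cholesterol genes sit at -0.25 beside -1.02 and -0.49.

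Called genes differed from all tested genes in level and composition. The share called rose with expression, from 0.992% below a log2 CPM of 1 to 20% above 7, where 296 genes were lower and 69 higher. Higher genes had a median GC content of 52.6% and a median span of 29.5 kb, lower genes 47.1% and 43.3 kb, and all tested genes 48.3% and 22.9 kb. In Control gRNA the order of GC content was the opposite, 45.5% for higher and 50% for lower genes. With offsets that model how each library depends on GC content, 1660 genes were called in ATF2 gRNA and 69.8% of them fell. A GC value was found for 373 of the 390 higher and 846 of the 877 lower genes.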

How the data were processed

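Libraries were made from poly(A) RNA with a stranded kit and sequenced in pairs, per the labels' protocols. The authors deposited 1 table of raw counts per gene for each experiment. Trimming with cutadapt 3.4, STAR alignment to GRCh38 and counting with featureCounts (Subread 2.0.1) are named in the submitters' processing notes, and duplicates were marked, per the file headers. Strand setting, handling of multi-mapped reads and of marked duplicates in the counting are not given in the sources used here. The deposited files also give gene lengths. Of 58440 gene identifiers, 56992 matched GENCODE 29 in version and start, and 58316 had a symbol.

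The quasi-likelihood test of edgeR 4.0.16 (R 4.3.3) was run on TMM-scaled counts of genes kept by filterByExpr, with 1 mean per group and all 29 libraries of the second experiment (32 of the first) in 1 fit. Calls need a Benjamini-Hochberg adjusted p under 0.05, 2-sided, over every gene tested in that comparison. There were 7 comparisons. Standard errors (SE) come from the fold change and its F statistic, CPM uses TMM factors, and ± after CPM is the SD. GC content and length were taken from GENCODE 29. The code was tested on simulated data. Tables and figures used pandas 2.3.3, numpy 2.4.6 and matplotlib 3.10.9 in Python 3.11.15.

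The members, the 35 lists (650 genes), the 11 marker sets and the tests were chosen with earlier results of these data known. Named are ATF2 and JUN; the 12 most raised and 12 most lowered called genes with an average log2 CPM of at least 1 and no overlap between groups; the 5 highest and 5 lowest whose difference from Control gRNA was called with the same sign; and from each list the called members with the largest changes, up to 4 for the stress response and tubulins and 2 for others. Other list members (among them DDIT3, SESN2, PHGDH, PYCR1, HRK, SREBF2, TTC5, TUBB6 and STMN4) were chosen after their values were seen. Results for some genes are not reported here, though counts over genes include them, except those of genes and libraries picked out for a closer look.

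Alternatives were DESeq2 1.42.0, RLE, upper quartile or no scaling factors, limma 3.58.1 voom with sample quality weights, no filter or at least 1 CPM on average, a replicate block, a fit restricted to the groups tested, an adjusted p under 0.01, a test against a fold of 1.2 and each library left out. The GC content offset was added after seeing the data. The number of libraries, not depth, limits precision for most genes. The labels give no batch. A vincristine replicate 1 of ATF2 gRNA was not analysed here.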

Additional observations from a re-analysis of the deposited data

Results flagged for a closer look

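Of the 81 named genes examined, 48 had a vincristine effect in ATF2 gRNA that differed from Control gRNA by the interaction test of edgeR (adjusted p under 0.05). Each value is the difference in log2 fold change, ATF2 gRNA minus Control gRNA.

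The most negative differences were -3.00 for ATF3, -2.39 for VIM, -2.28 for STC1, -2.21 for UNC5B, -1.78 for BBC3, -1.77 for CEBPB, -1.73 for EIF2AK3, -1.70 for TRIB3, -1.53 for MIR4435-2HG and -1.46 for JUN. Further negative values were -1.07 for NR4A1, -1.05 for KCND3, -1.03 for SLC7A11, -0.90 for PMAIP1, -0.79 for STC2, -0.74 for AL162231.2, -0.67 for VGF and -0.62 for DUSP5. Values nearer 0 were -0.36 for ALDH1L2, -0.26 for WARS, -0.22 for HERPUD1, -0.20 for SLC7A5 and -0.16 for GARS.

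A deeper fall, or a fall in place of a rise, in ATF2 gRNA gave -1.78 for GRIN2A, -1.06 for FABP7, -0.94 for SCUBE1, -0.84 for MAP7 and -0.62 for MAP7D2. It gave -0.45 for TUBA1A, -0.45 for TUBB2B, -0.35 for MT-ATP6, -0.33 for TUBB, -0.30 for SPAG9 and -0.24 for DYNC1I2.

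Positive differences belonged to falls that were shallower in ATF2 gRNA or to rises seen there. They were 1.03 for INSIG1, 1.02 for PCDH8, 1.00 for POU4F1, 0.78 for PCDH19, 0.66 for AC009812.1, 0.55 for AC046185.3, 0.49 for NSDHL and 0.46 for TTC32. The rest were 0.38 for TUBG1, 0.35 for RAB3A, 0.33 for AC005696.4, 0.17 for HSPA8, 0.15 for CHGA and 0.12 for STMN2.

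Some of these calls were lost under many of the 29 alternatives run for each, namely under 19 for MT-ATP6 and STMN2, 18 for GARS, 16 for TTC32, 15 for AL162231.2 and 14 for SLC7A5 and CHGA.

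In 9 of 162 pairs of gene and group 1 library stood far from the others. Vincristine replicate 2 was the highest for ATF3 (40.1 CPM) and NGFR (5.98 CPM) and the lowest for STC1 (9.84 CPM), and vincristine replicate 3 was the highest for TTC32 (10.2 CPM). Untreated replicate 1 was the highest for DNAJB1 (105 CPM) and NSDHL (38.6 CPM) and the lowest for TTC32 (5.97 CPM). Untreated replicate 5 was the lowest for GRIN2A (2.96 CPM) and MAP7D2 (3.70 CPM). Chance alone marks about 1 in 20 groups.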

How the results depend on the processing

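Of the 80 named genes called in ATF2 gRNA, 53 kept their call under every alternative and 27 lost it under at least 1, and 0 changed direction. Most often lost were MAPK8 (13 of 19 alternatives), PGAM1 (12), ALDOC (8) and DUSP5 (8). Of the 49 called differences from Control gRNA 39 were kept throughout. The 1267 calls in ATF2 gRNA became 768 in a fit of only these groups, 651 at an adjusted p under 0.01 and 86 (65 lower) against a fold of 1.2; leaving out 1 library gave 902 to 1219, the lowest without vincristine replicate 4, and 960 without vincristine replicate 2. For the difference from JUN gRNA the GC content offset gave 948 genes in place of 587. WT had 3529 calls when fitted alone, and double KO 1028, or 67 with limma voom. The median in ATF2 gRNA of genes that rose in WT was 0.22 with total counts alone and 0.05 for all genes called in WT. For genes that fell in WT it was -0.13 with total counts alone, -0.23 with limma voom, -0.08 for all called genes and -0.21 for genes chosen in Control gRNA.

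With 1 library left out, the counts were 6756 to 7139 in Control gRNA, 2881 to 3275 in JUN gRNA, 3797 to 4614 for the difference from Control gRNA, 463 to 643 for that from JUN gRNA, 4671 to 6050 in WT and 11 to 14 in double KO. The medians were 0.17 to 0.19 and -0.21 to -0.15.

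Same-numbered vincristine and untreated libraries of ATF2 gRNA deviated together with correlations of 0.06, 0.24, 0.14 and -0.04 over 8580 genes. Whether the numbers pair the samples was not tested. With the replicate number as a block 1112 genes were called in ATF2 gRNA, 1088 of them shared with the 1267. Only vincristine replicate 4 correlated best with its own number.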
